A study of Mus musculus with 8 samples.

Results

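The 10 genes described here are markers of radial glia that encode structural, membrane and transport proteins, together with the transcription factor Pax6: Fabp7, Slc1a3, Prom1, Nes, Vim, Ptprz1, Tnc, Pdzph1, Fam181a and Pax6. They were found by symbol among the 14954 genes of the deposited table, and all 10 had a row. They were chosen with their values in these libraries known, so their levels, differences and limma calls are given as a description. The 10 as a set were not tested. Pax6 is a nuclear factor and neither structural nor a membrane protein, and no role in these cells is stated here for Fam181a.

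The libraries came from progenitor cultures differentiated from mouse embryonic stem cells of the A2 lox.Cre Bcl6 line, which carries a tetracycline-inducible Bcl6 transgene in both groups. At day 12, 4 cultures received 1 µg/ml doxycycline for 24 h (Bcl6-induced) and 4 received DMSO (control), and per the labels both had been given cyclopamine, which blocks the hedgehog pathway, at 400 ng/ml from day 2 to day 10. The question was which transcripts change when Bcl6, a zinc-finger transcriptional repressor, is switched on in cortical-type progenitors. With no doxycycline-treated culture that lacks the transgene among these samples, the effects of Bcl6 and of doxycycline cannot be told apart. The labels number the differentiations 1 to 4 in each group and do not say more about how independent the cultures were, so the p-values given here reflect only variation among these libraries, which may be technical.

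Radial glia are the elongated neural stem cells of the embryonic cortex. They are attached to the ventricle by an apical end foot and to the outer surface by a long basal fibre, divide to give neurons and intermediate progenitors, and guide migrating neurons along the fibre. Most of the genes described here serve the cytoskeleton, the lipid and glutamate handling, the apical membrane or the surrounding matrix of these cells, and Notch signalling through RBPJ is known to maintain the radial glial state.

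Recovered depth was 10.33 M to 15.02 M reads in Bcl6-induced libraries and 9.42 M to 9.74 M reads in control libraries. Levels are in CPM, each deposited value scaled by its library's total, and differences are on the log2(value + 1) scale. Bcl6 itself had 392 ± 47.1 CPM in Bcl6-induced libraries and 6.49 ± 0.49 CPM in control libraries (SD, n = 4 each), transgene and endogenous gene together. Control 1 stood apart from the other controls along exon length, taken over all annotated exons of a gene. Relative to the mean of all libraries, its 10% of genes with the most exon bases had a median deviation of -0.40 (log2). Its 10% with the fewest had 0.34. Of all genes, 6.81% were called at an adjusted p under 0.05 by limma with Benjamini-Hochberg adjustment, 681 higher and 338 lower in Bcl6-induced libraries. That split shifted with scaling, to 536 higher and 424 lower by median-of-ratios, 558 and 411 by TMM, 501 and 474 by upper quartile, and 878 and 865 with the length trend taken off. The median log2 difference of all genes was 0.03 without such scaling and lay between -0.02 and 0.00 under these alternatives. How far the label of cortical-type progenitors was met was not tested. In control libraries Sox2 averaged 257 ± 22.3 CPM and the cortical factor Emx2 averaged 4.47 ± 0.62 CPM (SD, n = 4). Emx1 was not among the genes analysed. The pluripotency factor Pou5f1 averaged 443 ± 42.0 CPM in Bcl6-induced and 538 ± 65.7 CPM in control libraries. Of the 8 pluripotency markers listed, 4 were called higher and 1 lower in Bcl6-induced libraries, with a median log2 difference of 0.36.

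Of the 10 radial glia genes, 7 were called lower in Bcl6-induced libraries, none was called higher and 3 were not called (Vim, Tnc and Pax6), where 2.26% of all genes were called lower and 4.55% higher; since the genes were chosen from this contrast, nothing is read from that difference. By limma at an unadjusted p under 0.05 the counts were 7 lower and 0 higher. The share of all genes at that bound is not given, here or for the lists below, so nothing is read from such counts. In 6 genes every Bcl6-induced library was below every control library, as in 6.32% of all genes, in none was every one above, as in 10.8% of all genes, and in 4 the groups overlapped. The median log2 difference of the 10 genes was -0.68, against 0.03 over all genes. Only Slc1a3 and Prom1 kept their call whichever library was left out: 2 of the 10 were called without Bcl6-induced library 1, without Bcl6-induced library 2 or without control library 2, 3 without control 4, 5 without control 3, and 7 without control 1, Bcl6-induced 3 or Bcl6-induced 4. The sizes ranged from a few-fold in Fabp7, Pdzph1 and Fam181a to a log2 difference of 0.11 in Tnc, and in these bulk cultures fewer radial glia and less RNA per cell cannot be told apart.

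**Figure D1:**
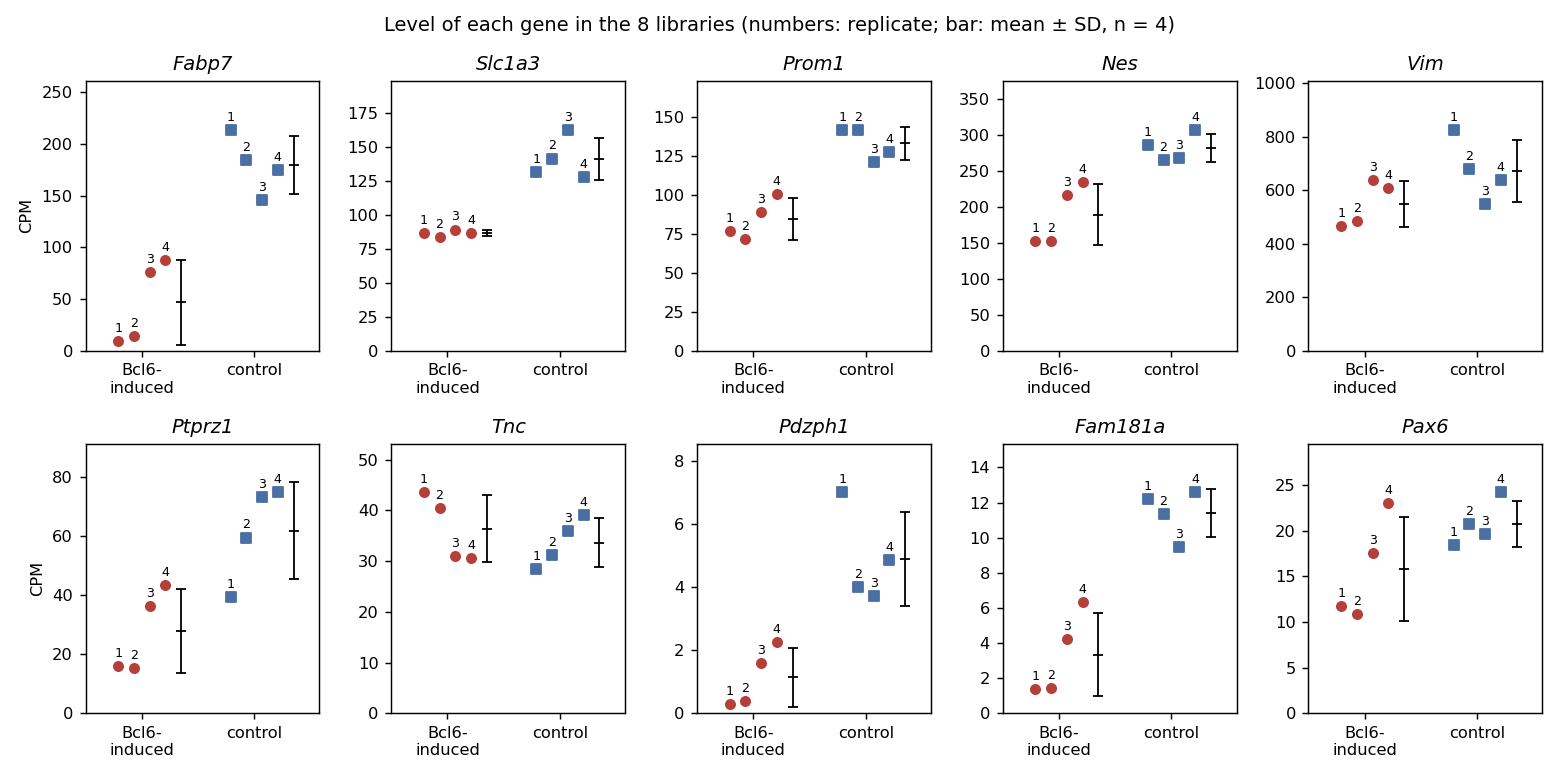
CPM of each gene in the 8 libraries, Bcl6-induced on the left (circles) and control on the right (squares), numbered by replicate, with the mean ± SD (n = 4) as black bars; each panel has its own axis from 0. In Fabp7, Slc1a3, Prom1, Nes, Pdzph1 and Fam181a all 4 Bcl6-induced points lie below all 4 control points.

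Fabp7, also called brain lipid-binding protein, carries fatty acids in radial glia and is known in mouse as a target of Notch signalling. The gene lies at chr10:57784881-57788450 on the plus strand (mm10, GENCODE M21). Fabp7 had 9.47, 14.0, 76.6 and 87.4 CPM in Bcl6-induced libraries 1 to 4, against 214, 185, 146 and 174 CPM in control libraries 1 to 4. Libraries 1 and 2 of the Bcl6-induced group were the lowest, libraries 3 and 4 lay between them and the controls, and the groups did not overlap. Fabp7 averaged 46.9 ± 40.9 CPM in Bcl6-induced and 179.6 ± 28.1 CPM in control libraries (SD, n = 4 each), a log2 difference of -2.53 ± 0.62 (SE). As a share of the control mean, the 4 Bcl6-induced libraries held 5.27%, 7.78%, 42.6% and 48.7%. Its call was lost without Bcl6-induced library 1 or 2 or without control library 2, 3 or 4, and the log2 difference ranged from -3.03 to -1.97 over the single-library omissions.

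Slc1a3 encodes GLAST, the glutamate transporter of radial glia and astrocytes, at chr15:8634124-8710764 on the minus strand (mm10). Slc1a3 had 86.5, 83.8, 89.4 and 86.6 CPM in Bcl6-induced libraries 1 to 4, against 132, 142, 163 and 128 CPM in control libraries 1 to 4. The 4 Bcl6-induced libraries were nearly level, at 59.3% to 63.3% of the control mean, and the groups did not overlap. The means were 86.6 ± 2.28 CPM and 141 ± 15.6 CPM in Bcl6-induced and control libraries (SD, n = 4 each), a log2 difference of -0.70 ± 0.08 (SE) that stayed between -0.78 and -0.63 over all 19 alternatives, all of which kept the call. Slc1a3 was evenly lower, with a coefficient of variation of 2.63% in Bcl6-induced and 11.0% in control libraries, where Fabp7 had 87.2% in Bcl6-induced and 15.7% in control libraries.

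The start regions of Fabp7, Slc1a3 and Tnc are printed because these genes show the 3 patterns found, a reduction that differed between the Bcl6-induced libraries, one that did not, and no reduction. Each window runs from 250 bases before to 50 bases after a RefSeq transcript start (GRCm38.p6), 5′ to 3′ on the gene's strand. Capitals mark matches, on either strand, to a BCL6-type palindrome (TTCNNNGAA), the core of RBPJ sites (TGGGAA, which reads TTCCCA from the other strand) or the POU octamer (ATTTGCAT, which reads ATGCAAAT from the other strand). These motifs were settled on after matches had been looked at.
Fabp7, chr10:57784673-57784972, plus strand: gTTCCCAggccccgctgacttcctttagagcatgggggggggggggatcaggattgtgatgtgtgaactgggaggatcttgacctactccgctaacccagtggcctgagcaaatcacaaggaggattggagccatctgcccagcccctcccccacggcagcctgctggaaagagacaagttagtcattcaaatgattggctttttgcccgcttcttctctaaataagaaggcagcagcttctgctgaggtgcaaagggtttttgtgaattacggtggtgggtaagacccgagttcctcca
Slc1a3, chr15:8710758-8711057, minus strand: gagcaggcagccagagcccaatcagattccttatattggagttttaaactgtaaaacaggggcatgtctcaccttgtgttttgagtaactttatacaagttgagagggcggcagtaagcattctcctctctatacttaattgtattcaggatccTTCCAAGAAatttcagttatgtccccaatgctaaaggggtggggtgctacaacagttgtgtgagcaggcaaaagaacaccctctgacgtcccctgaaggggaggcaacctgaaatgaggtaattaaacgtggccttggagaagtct
Tnc, chr4:64046966-64047265, minus strand: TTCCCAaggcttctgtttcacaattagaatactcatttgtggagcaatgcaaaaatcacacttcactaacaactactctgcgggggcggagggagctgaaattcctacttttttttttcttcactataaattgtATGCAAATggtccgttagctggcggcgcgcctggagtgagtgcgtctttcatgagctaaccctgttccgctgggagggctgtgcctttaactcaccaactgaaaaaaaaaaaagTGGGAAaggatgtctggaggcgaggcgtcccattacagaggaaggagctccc

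All 10 genes were matched in the RefSeq table, with 13 start windows. The BCL6-type palindrome occurred in 8.30% of 32851 mouse windows and in 1 of the 13, that of Slc1a3, as TTCCAAGAA at chr15:8710895-8710903, beginning 96 bases before the start. The RBPJ core occurred in 25.6% of all windows and in 4 of the 13: in Fabp7 beginning 249 bases before the start, in Prom1 beginning 116 bases before it, and in both windows of Tnc. The octamer occurred in 1.74% of all windows and in 3 of the 13, both overlapping windows of Tnc, which share 1 site, and that of Pdzph1. The capitals are matches of letters only. No site was tested, and a window without a match says nothing about binding elsewhere.

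Prom1 encodes prominin-1 (CD133), a cholesterol-binding protein of the protrusions of the apical membrane, at chr5:43993620-44102032 on the minus strand (mm10). Prom1 had 76.6, 71.2, 89.1 and 100.5 CPM in Bcl6-induced libraries 1 to 4, against 142, 141, 121 and 127 CPM in control libraries 1 to 4. The groups did not overlap, and libraries 3 and 4 were again the higher ones of the Bcl6-induced group. The means of 84.4 ± 13.1 CPM in Bcl6-induced and 133 ± 10.3 CPM in control libraries (SD, n = 4 each) gave a log2 difference of -0.66 ± 0.11 (SE), and the call was kept in all 19 alternatives. An opposite-strand gene, Gm16401, shares 424 exon bases with Prom1, and strand-specific counting is not stated in the sources used here.

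Pdzph1, a PDZ and pleckstrin homology domain gene at chr17:58878808-58991375 on the minus strand (mm10), had the fewest reads of the 10. Pdzph1 had 0.301, 0.401, 1.60 and 2.26 CPM in Bcl6-induced libraries 1 to 4, against 7.01, 4.01, 3.71 and 4.86 CPM in control libraries 1 to 4. All Bcl6-induced libraries were below all controls, and libraries 1 and 2 rested on 4 reads each, a level of 0.266 CPM from the reads of library 1 with an exact 95% Poisson interval of 0.0725 to 0.682 that covers counting error only. It averaged 1.14 ± 0.95 CPM in Bcl6-induced and 4.90 ± 1.49 CPM in control libraries (SD, n = 4 each). The log2 difference was -2.44 ± 0.55 (SE), it was -1.88 with a pseudocount of 10, and the call was lost without Bcl6-induced library 1 or 2 or control library 2 or 4.

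Fam181a, a protein-coding gene at chr12:103310975-103317065 on the plus strand (mm10), had the same order of Bcl6-induced libraries as Pdzph1. Its levels were 1.40, 1.45, 4.21 and 6.32 CPM in Bcl6-induced libraries 1 to 4, against 12.2, 11.3, 9.48 and 12.6 CPM in control libraries 1 to 4. The groups did not overlap, and Bcl6-induced libraries 1 and 2, with 21 and 16 reads, were at 12.3% and 12.7% of the control mean. The means were 3.35 ± 2.38 CPM in Bcl6-induced and 11.4 ± 1.39 CPM in control libraries (SD, n = 4 each), a log2 difference of -2.04 ± 0.42 (SE) whose call was lost without Bcl6-induced library 1 or 2 or control library 2.

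**Figure D2:**
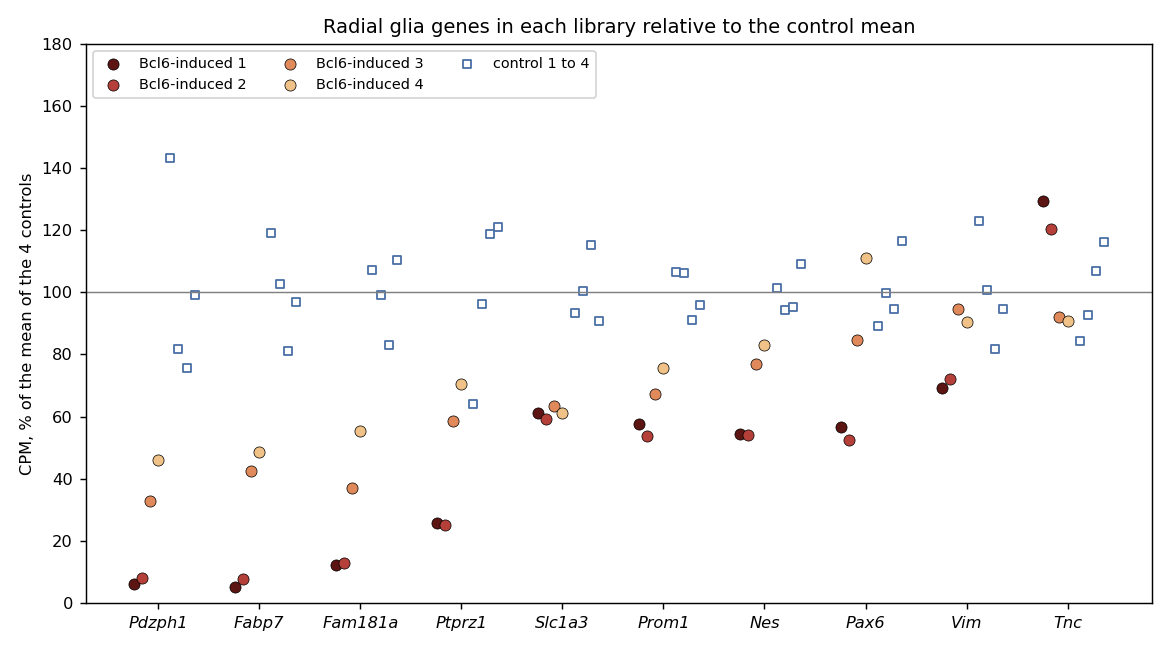
CPM in each library as a percent of the mean of the 4 control libraries, for the 10 genes in order of their mean in Bcl6-induced libraries; filled circles are Bcl6-induced libraries 1 to 4 and open squares the controls. Slc1a3 has 4 Bcl6-induced points close together at 59.3% to 63.3%, whereas Fabp7 spans 5.27% to 48.7%.

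Nes and Vim encode intermediate filament proteins that are found together in the radial fibre. Nes, nestin, lies at chr3:87971078-87980451 on the plus strand and Vim, vimentin, at chr2:13573927-13582826 on the plus strand (mm10). Nes had 153, 152, 217 and 235 CPM in Bcl6-induced libraries 1 to 4, against 286, 266, 268 and 307 CPM in control libraries 1 to 4. Every Bcl6-induced library was below every control, with libraries 1 and 2 lowest. The means were 189 ± 42.8 CPM in Bcl6-induced and 282 ± 19.3 CPM in control libraries (SD, n = 4 each), a log2 difference of -0.60 ± 0.14 (SE), and the call was lost without Bcl6-induced library 1 or 2 or control library 2 or 4.

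Vim had 465, 485, 637 and 608 CPM in Bcl6-induced libraries 1 to 4, against 826, 678, 549 and 637 CPM in control libraries 1 to 4. The groups overlapped, since Bcl6-induced libraries 3 and 4 were above control library 3. It averaged 548 ± 86.3 CPM in Bcl6-induced and 672 ± 116 CPM in control libraries (SD, n = 4 each), and the log2 difference of -0.29 ± 0.14 (SE) was not called in any of the alternatives. The ratio of Nes to Vim in CPM was 0.330, 0.314, 0.341 and 0.386 in Bcl6-induced libraries and 0.346, 0.392, 0.489 and 0.483 in control libraries, so the ratios of the groups overlapped as well. Vimentin is also made by mesenchymal cells, and the stem cells had been kept on embryonic fibroblasts before differentiation, per the labels. The 10 measured mesenchymal and fibroblast genes summed to 591 to 712 CPM in Bcl6-induced and 548 to 701 CPM in control libraries, and none was called by limma (3 lower and 1 higher at an unadjusted p under 0.05). Their part in the Vim level was not tested.

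Ptprz1 and Tnc stand for the cell surface and the matrix around radial glia. Ptprz1, a receptor-type tyrosine phosphatase that binds pleiotrophin and matrix proteins, lies at chr6:22875502-23052916 on the plus strand (mm10). Ptprz1 had 15.9, 15.5, 36.2 and 43.5 CPM in Bcl6-induced libraries 1 to 4, against 39.5, 59.5, 73.3 and 74.7 CPM in control libraries 1 to 4. The groups overlapped, as Bcl6-induced library 4 was above control library 1. With means of 27.7 ± 14.2 CPM in Bcl6-induced and 61.7 ± 16.4 CPM in control libraries (SD, n = 4 each), the log2 difference was -1.26 ± 0.33 (SE), and the call was lost without Bcl6-induced library 1 or 2 or control library 2, 3 or 4. Ptprz1 has 14.2 kb of exon, the most of the 10 genes. Control 1, its lowest control, was the library low in genes of long exon length. With the length trend taken off, the log2 difference was -1.39.

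Tnc encodes tenascin-C, a matrix glycoprotein, at chr4:63959785-64047015 on the minus strand (mm10), and was the gene of the 10 that was not lower on average. Tnc had 43.5, 40.5, 31.0 and 30.6 CPM in Bcl6-induced libraries 1 to 4, against 28.4, 31.2, 36.0 and 39.1 CPM in control libraries 1 to 4. The groups overlapped, and here Bcl6-induced libraries 1 and 2 were the higher ones. The means were 36.4 ± 6.61 CPM in Bcl6-induced and 33.7 ± 4.79 CPM in control libraries (SD, n = 4 each), with a log2 difference of 0.11 ± 0.14 (SE) that lay between 0.01 and 0.18 in the alternatives and was never called. Tnc shares 176 exon bases with 8030451A03Rik on the opposite strand.

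Pax6, a paired-box and homeobox transcription factor of cortical radial glia, lies at chr2:105668900-105697364 on the plus strand (mm10). Pax6 had 11.7, 10.9, 17.6 and 23.1 CPM in Bcl6-induced libraries 1 to 4, against 18.5, 20.7, 19.6 and 24.2 CPM in control libraries 1 to 4. Libraries 1 to 3 of the Bcl6-induced group were below every control, and library 4 was above 3 of the 4 controls. It averaged 15.8 ± 5.68 CPM in Bcl6-induced and 20.7 ± 2.47 CPM in control libraries (SD, n = 4 each), and the log2 difference of -0.45 ± 0.21 (SE) was not called, except with array weights, where it was -0.69.

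Levels can be compared between genes only per length of exon. The length used joins all annotated exons of a gene and can exceed that of the transcripts present. The order of genes below depends on that choice. In control libraries Fabp7 had 144 CPM per kb and Vim 142 CPM per kb, with ranges that overlapped, then Nes 43.9 CPM per kb, apart from both. Prom1 at 18.5 and Slc1a3 at 16.5 CPM per kb overlapped each other, followed by Fam181a at 7.42 CPM per kb. Ptprz1 and Tnc were level at 4.33 CPM per kb, and Pax6 at 1.77 and Pdzph1 at 1.10 CPM per kb overlapped at the bottom. Per kb, Fabp7 fell to 37.5 ± 32.7 in Bcl6-induced libraries, against 144 ± 22.5 in control libraries, while Vim had 116 ± 18.2 CPM per kb in Bcl6-induced and 142 ± 24.4 CPM per kb in control libraries (SD, n = 4 each).

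**Figure D3:**
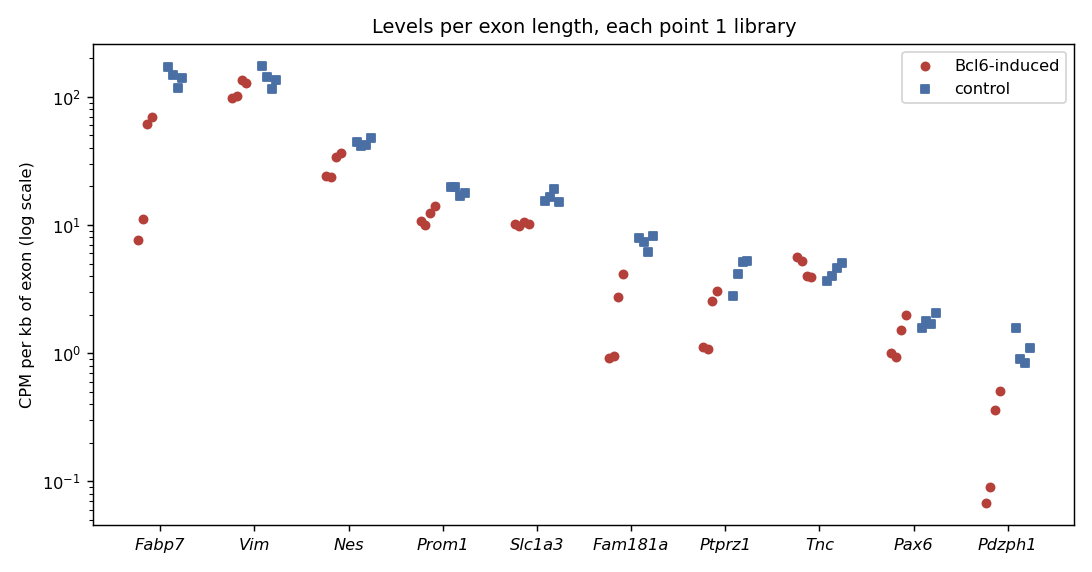
CPM per kb of exon on a log axis, 1 point per library, Bcl6-induced (circles) left of control (squares), genes in order of their control mean. Fabp7 and Vim share the top in the controls at 144 and 142 CPM per kb, and in the Bcl6-induced libraries Fabp7 averages 37.5 CPM per kb.

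Averaged over the 10 genes, the log2 distance from the control mean was -1.60, -1.54, -0.69 and -0.48 in Bcl6-induced libraries 1 to 4, and it stayed from -0.08 to 0.08 in the controls. In 9 of the 10, Bcl6-induced libraries 1 and 2 were both below libraries 3 and 4, as in 23.8% of all genes; in Tnc libraries 1 and 2 were both above 3 and 4, as in 28.8% of all genes. Slc1a3 is among the 9 although its 4 Bcl6-induced libraries differed by a few CPM. The genes were chosen with their values in these libraries known, so nothing is read from these counts beside the shares of all genes.

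Deviations of each library from its group's mean, on log2(CPM + 0.1), were set against each other over the 8 libraries, as a description. With Slc1a3 and Tnc set aside after their values were seen, the other 8 genes gave 28 pairs with Pearson r from 0.25 (Vim with Ptprz1) to 0.98 (Nes with Fam181a), and a median of 0.85. Slc1a3 had r between -0.38 and 0.32 with these 8 genes, and Tnc between -0.89 and -0.40. The points share their libraries, and the deviations of a gene such as Fabp7 come from the Bcl6-induced libraries, which hold 98.1% of its squared deviation, against 5.69% for Slc1a3. Of 11863 other genes with a mean of at least 5 CPM, 2.53% had r of at least 0.8 with Fabp7 and 2.63% had r of at most -0.8.

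**Figure D4:**
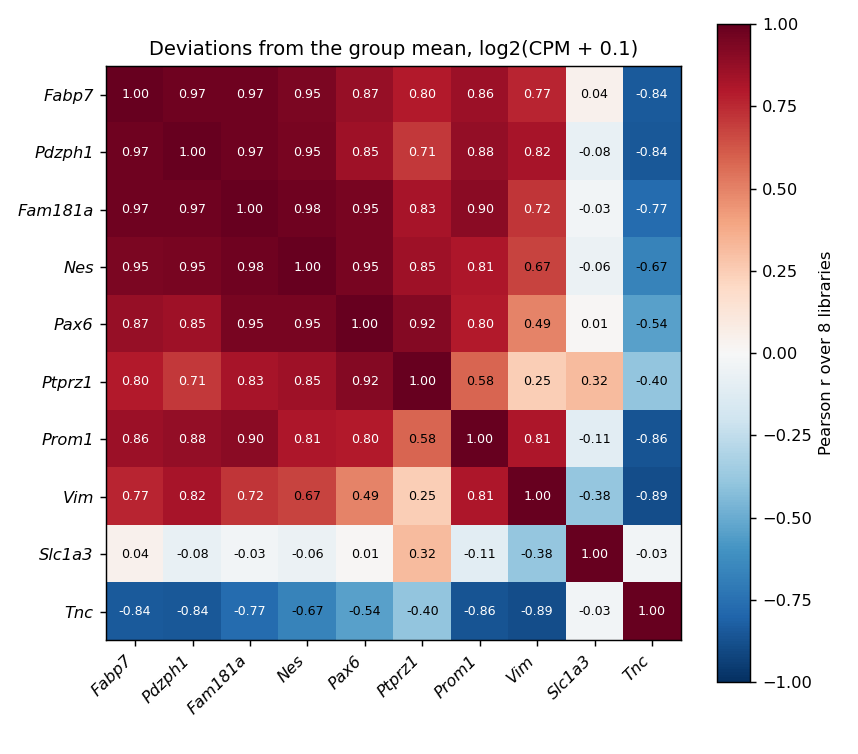
Pearson r between the 10 genes' deviations from their group means over 8 libraries, from blue (-1) to red (1). The red block holds the 8 genes with pairwise r of 0.25 to 0.98, and the Slc1a3 and Tnc lines lie outside it.

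The genes most like Fabp7 over the 8 levels were Hes5 (r = 0.998), Gm44645 (0.988), Gprc5b (0.987), Ndnf (0.986) and C130071C03Rik (0.986). Over the deviations they were Hes5 (r = 0.996), Dbx1 (0.985), Tal2 (0.984), Map2k6 (0.983) and Ldha (0.981). Hes5, a bHLH repressor and Notch target, had 0.200, 0.301, 6.06 and 6.12 CPM in Bcl6-induced libraries 1 to 4, against 23.0, 17.6, 13.8 and 14.9 CPM in control libraries, the first 2 values resting on 3 reads each. For Slc1a3 the most alike over levels included Abca4 (r = 0.995), Sytl2 (0.986), Fam46a (0.986) and Gpr139 (0.985). Over deviations Slc1a3 was most like Bub1 (r = 0.975), Usp16 (0.971), Gipr (0.964), BC022960 (0.951) and BC068281 (0.951). No gene was among the 5 most alike of both Fabp7 and Slc1a3, but lists of 5 out of 11863 genes would rarely share one, so nothing is read from that.

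Relatives of each gene were then counted from lists, with limma and Benjamini-Hochberg adjustment over all genes. Of 31 measured other radial glia and apical progenitor genes, 9 were called lower and 1 higher, and the median log2 difference was -0.50, against 0.03 over all genes. Those named were Hes5 (log2 difference -3.66 ± 0.95, adjusted p = 0.0441), the endothelin receptor gene Ednrb (-1.75 ± 0.34, adjusted p = 0.0144), and the Sox genes Sox3 (-1.08 ± 0.21, adjusted p = 0.0145), Sox9 (-0.99 ± 0.19, adjusted p = 0.0143) and Sox1 (-0.82 ± 0.21, adjusted p = 0.0455). Lhx2, a LIM homeobox factor of cortical progenitors, was higher (1.11 ± 0.15, adjusted p = 0.00284). Glul, Sox2 and Mfge8 were not called, at -0.01, -0.01 and 0.16. Of these, only Lhx2 kept its call in every single-library omission, and Ttyh1 was the 1 gene of the 9 called lower to do so; Hes5 lost its call in 6 of the 8.

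**Figure D5:**
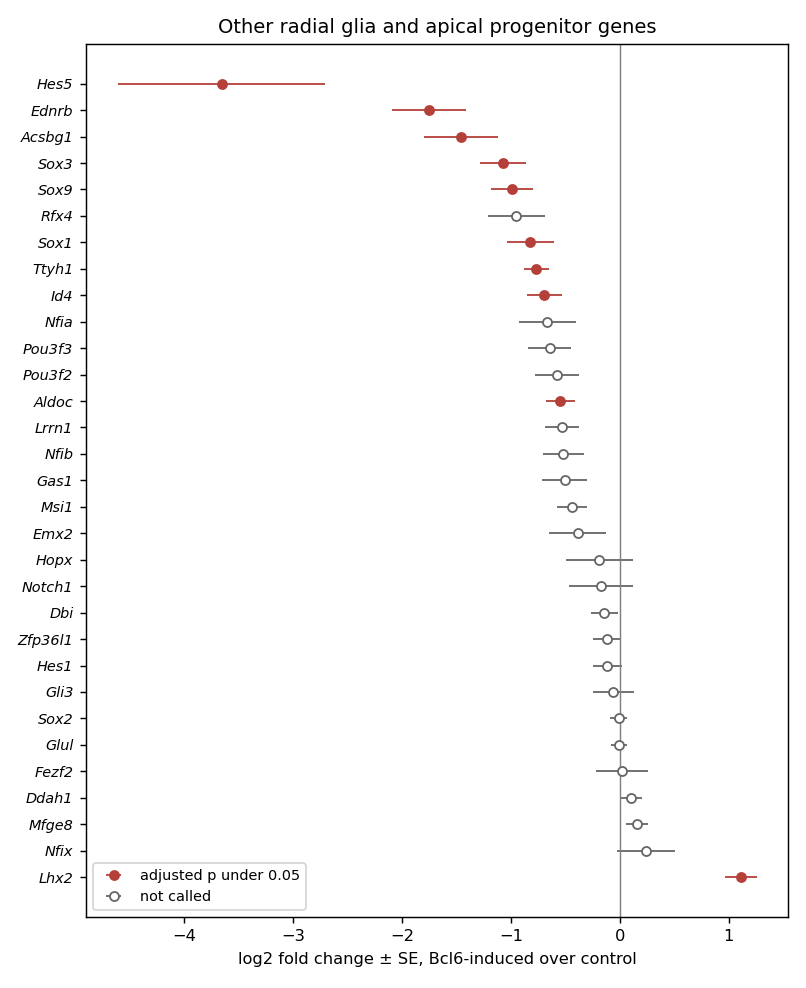
Log2 fold change of Bcl6-induced over control ± SE for the 31 other radial glia and apical progenitor genes, filled where the adjusted p is under 0.05. Points run from Hes5 at -3.66 to Lhx2 at 1.11, with 9 filled points left of 0 and 1 right of it.

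No measured relative of Fabp7 or Slc1a3 was called lower. Of 5 fatty acid and retinoid binding relatives of Fabp7, none was called lower (1 at an unadjusted p under 0.05) and Crabp1 (1.02 ± 0.13, adjusted p = 0.00276) and Fabp3 (0.76 ± 0.15, adjusted p = 0.015) rose. Fabp5, an epidermal-type fatty acid binding protein, had 128 ± 9.21 CPM in Bcl6-induced and 136 ± 21.7 CPM in control libraries (SD, n = 4 each; log2 difference -0.07), and Crabp2 was not called at -0.54. The ratio of Fabp7 to Fabp5 was 0.0799, 0.109, 0.545 and 0.701 in Bcl6-induced libraries and 1.30, 1.33, 1.23 and 1.46 in control libraries. None of the 5 measured Slc1 relatives of Slc1a3 was called (0 lower and 1 higher at an unadjusted p under 0.05), with log2 differences of 0.66 for the glial glutamate transporter gene Slc1a2, -0.15 for Slc1a4 and 0.00 for Slc1a5.

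Of 13 intermediate filament genes other than Nes and Vim, 4 rose and none was called lower (1 at an unadjusted p under 0.05). The neuronal filament genes Nefm (0.88 ± 0.19, adjusted p = 0.0211) and Ina (0.75 ± 0.12, adjusted p = 0.00584) and the simple-epithelium keratins Krt8 (0.56 ± 0.09, adjusted p = 0.00741) and Krt18 (0.42 ± 0.11, adjusted p = 0.049) were the 4. Krt18 lost its call under median-of-ratios, upper quartile and TMM scaling and without the variance trend. The lamins Lmnb1 and Lmnb2 and the neurofilament gene Nefl were not called at -0.17, -0.09 and 0.70.

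Of 17 measured ligands, receptors and matrix partners of Ptprz1 and Tnc, 2 were lower and 2 higher. Ptn, pleiotrophin, a ligand of Ptprz1, had 32.8, 33.9, 56.2 and 62.7 CPM in Bcl6-induced libraries 1 to 4, against 91.3, 82.3, 68.6 and 92.3 CPM in control libraries (-0.90 ± 0.20, adjusted p = 0.0261). Its groups did not overlap, and libraries 1 and 2 were lowest, as for Ptprz1. The other ligand, Mdk, midkine, was not called at -0.24, nor were Fn1 at 0.31 and Itgb1 at 0.06. Itgb3 (0.99 ± 0.19, adjusted p = 0.0127) and Sdc3 (0.42 ± 0.08, adjusted p = 0.0179) rose, and the fourth called gene, Bcan, with under 5 CPM, was lower (-0.94 ± 0.23, adjusted p = 0.0397). None of the 4 kept its call in every single-library omission.

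Among 19 genes of the apical membrane and junctions, where prominin-1 resides, Ttyh1 (-0.77 ± 0.11, adjusted p = 0.00417) and the Crumbs gene Crb2 (-0.76 ± 0.19, adjusted p = 0.0373) were lower, and the polarity genes Pard6b (0.42 ± 0.10, adjusted p = 0.0277) and Pard3 (0.30 ± 0.07, adjusted p = 0.0359) were higher. Pard3 lost its call under the same 3 scalings, without the variance trend and with the length trend taken off. The junction genes Ctnnb1 and Ctnna1 and the kinase gene Prkci were not called at -0.02, 0.19 and -0.25. The median log2 difference of these 19 was 0.06. Of 19 listed regulators of radial glia genes (Notch pathway, POU and Sox genes and Meis2), 5 were lower and none higher (3 at an unadjusted p under 0.05). Beside Hes5 and Sox9 these were Hey1 (-0.88 ± 0.17, adjusted p = 0.0153), Jag1 (-0.44 ± 0.11, adjusted p = 0.0414) and Nrarp (-1.22 ± 0.28, adjusted p = 0.0291). Nrarp averaged 2.68 CPM in Bcl6-induced and 6.03 CPM in control libraries. Sox11, Sox2 and the Notch partner Rbpj were not called at -0.03, -0.01 and 0.35. Among the other listed Notch pathway genes, Hes1 was not called at -0.11, nor were Notch1 at -0.17, Notch2 at -0.002, Notch3 at -0.06 and Dll3 at 0.52. None of the 5 kept its call in every single-library omission. Of all relatives named, Lhx2, Ttyh1, Crabp1, Ina and Krt8 kept their calls in every omission, and the others lost theirs in 1 (Itgb3) to 8 (Bcan) of the 8.

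Markers of other cell types differed between the groups too. The 10 neuronal markers summed to 1359 to 1618 CPM in Bcl6-induced and 833 to 1003 CPM in control libraries, and 6 of 10 rose, among them Cntn2 (1.29 ± 0.10, adjusted p = 0.000166) and Dcx (1.06 ± 0.16, adjusted p = 0.00417). Gap43, Snap25, Stmn2 and Rbfox3 were not called, at 0.48, 0.19, -0.02 and -0.25. The 8 intermediate progenitor markers summed to 220, 219, 314 and 346 CPM in Bcl6-induced libraries 1 to 4. Their sums in control libraries 1 to 4 were 216, 199, 166 and 202 CPM, so Bcl6-induced libraries 1 and 2 were close to control 1. Of the 8, 3 were called higher, among them Nhlh1 and Eomes (0.97 ± 0.24, adjusted p = 0.0361, and 0.93 ± 0.09, adjusted p = 0.000507). Eomes kept its call in every single-library omission, whereas Nhlh1 lost it without Bcl6-induced library 3 or 4 or control library 2, 3 or 4. None of either list was called lower, nor lower at an unadjusted p under 0.05. Of 8 astrocyte markers 4 were measured, Gfap and Aqp4 not among them, and only Fgfr3 was called, lower at -0.60 ± 0.12 (adjusted p = 0.0144), a call lost without Bcl6-induced library 1 or 2 or control library 2. The 4 summed to 427 to 480 CPM in Bcl6-induced and 397 to 438 CPM in control libraries, with a median log2 difference of 0.23. By limma at an unadjusted p under 0.05, 1 of them was lower and 2 were higher. Neural crest markers summed to 180 to 195 CPM in Bcl6-induced and 114 to 141 CPM in control libraries, with 4 of 7 higher, and surface epithelium markers to 929 to 1063 CPM and 705 to 819 CPM, with 4 of 6 higher; of these, Tfap2a and Krt18 lost their calls under each of the 3 scalings. Pluripotency markers summed to 1856 to 2199 CPM in Bcl6-induced and 1983 to 2225 CPM in control libraries, with 4 of 8 higher and 1 lower. Both oligodendrocyte precursor markers and all 8 endoderm markers measured were not called (0 lower and 1 higher, and 1 lower and 3 higher, at an unadjusted p under 0.05). Their part in the levels of the 10 radial glia genes was not tested.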

How the data were processed

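RNA of 8 cultures was sequenced from stranded TruSeq mRNA libraries, per the labels. The submitters' processing notes list HTSeq 0.9.1, edgeR 3.20.1, STAR 2.5.3a and the build mm10, without roles. The values the authors deposited are a score: whole numbers summing to about 20 M per library (19.93 M to 19.96 M), which proved to be read numbers brought to 1 library size and rounded up. At least 99.6% of values lay on multiples of 1 step per library (at most 77.6% on a shifted step), which gave the reads behind them. Lines broken by decimal commas were rejoined by matching each to its own CPM.

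Tests were run on log2(value + 1) in limma 3.58.1 (R 4.3.3), letting the variance follow expression, and Benjamini-Hochberg adjustment over all 14954 genes, with no further filter. EdgeR, planned for raw counts, was not used. Positions are from GENCODE M21, start windows from RefSeq GRCm38.p6. Genes named in the text were all 10 radial glia genes, Bcl6, the up to 6 called genes of each pathway list with the largest log2 differences at a mean of at least 5 CPM, up to 3 genes of it with the highest mean CPM that were not called, and the 5 genes most like Fabp7 and Slc1a3. Emx1, Emx2, Pou5f1, the cell type markers named, Bcan, Nrarp, Hes1, Notch1, Notch2, Notch3 and Dll3 were added after their values were seen. Some genes that this rule names are not reported here. The genes and lists were chosen with earlier results of these data known.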

Additional observations from a re-analysis of the deposited data

How the results depend on the processing

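Each result was recomputed under 19 alternatives of scaling, pseudocount, filter, weighting and single-library omission. No log2 difference of the 10 radial glia genes changed sign. Of all genes, 1019 were called, 2507 with array weights, 1743 with the exon length trend taken off, and 308 to 1697 over the single-library omissions. Of the 10 radial glia genes, 7 were called, 3 without the variance trend (Slc1a3, Prom1 and Fam181a), and 2 to 7 over the omissions. Of 162 listed genes, 47 were called, 72 with array weights, 31 without the variance trend, and 21 to 54 over the omissions. Why the calls moved was not tested.

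The labels number differentiations 1 to 4 in both groups without stating that a number was 1 shared differentiation. Same-numbered libraries had deviations correlated at 0.03, 0.01, -0.03 and 0.37, and differently numbered ones at -0.32 to 0.32. The numbers were not taken as pairs, although these values cannot decide whether they were. With the number as a replicate block, 827 genes, 7 radial glia genes and 50 listed genes were called. Planned count-based fits with edgeR and DESeq2 were not run, since the values are not raw counts. Pdzph1, at 4 reads in 2 libraries, is limited by depth, and it was not tested under the minimum mean of 100 scaled reads.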

Other observations

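Most of the 10 radial glia genes varied more between Bcl6-induced than between control libraries. The coefficient of variation in CPM was larger in Bcl6-induced than in control libraries for 8 of the 10, against 26.3% of all genes. The exceptions were Slc1a3, with 2.63% in Bcl6-induced and 11.0% in control libraries, and Vim, with 15.7% in Bcl6-induced and 17.2% in control libraries. Over genes with a mean of at least 5 CPM the median was 6.71% in Bcl6-induced and 12.2% in control libraries. Tnc, at 18.2% in Bcl6-induced and 14.2% in control libraries, was above that median in both. These are values of the same libraries and were not tested. Since the genes were chosen with those values known, nothing is read from the 8 of 10 beside the share of all genes.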
